A study of Drosophila melanogaster with 3 samples.

Results

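Broad is a family of zinc finger transcription factors encoded by br, a gene of the early response to the moulting hormone ecdysone. Its tagged form was mapped by anti-GFP chromatin immunoprecipitation and sequencing in whole Drosophila melanogaster larvae, and the peaks described here are those at head-to-head promoters. A peak belonged to this class when protein-coding transcription start sites (TSSs) on both strands lay within 1 kb of its summit and at least 1 minus-strand TSS lay to the left of a plus-strand TSS, so that the genes were transcribed away from each other. Of the 2510 optimal peaks on nuclear chromosomes, 575 met this rule, which is 22.9%. Another 885 peaks had a protein-coding TSS within 1 kb without this arrangement (other promoter peaks below), and 1050 had none (peaks away from promoters). The rule used only the position of the summit and the annotation, not the signal or the sequence. The optimal peaks and the replicate lists come from the same 3 libraries, so presence in a replicate is no independent check of a peak.

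The study had 1 group of 3 biological replicates, numbered 2, 3 and 4, of transgenic larvae at the wandering stage of the third instar, males and females pooled, whose exact age the labels give as unknown. All larvae carried the transgene, labelled br-eGFP, in the strain br-re-GFP. It fuses GFP to the C terminus of the form br-RE, so untagged Broad proteins were not measured. Whole animals mix many tissues, and a peak says nothing of which cells bound the factor. The control library, an untagged group or a second condition were not analysed here. The authors' optimal list is 1 set of peaks kept by a threshold on the irreproducible discovery rate, and its values therefore carry no SD. Each replicate had its own ranked list of 30000 regions, and as many of its strongest regions as there are optimal peaks in all, 2533 (called top regions), supplied the replicate values. The signal is the authors' peak strength and was used only within 1 list.

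Compact genomes hold many genes whose 5′ ends face away from each other across a short shared interval. In Drosophila such pairs are often widely expressed genes of basic cell functions. The DNA replication-related element factor DREF, and the boundary protein BEAF-32, which binds clusters of the word CGATA, are known for occupying promoters of this kind.

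The sequences below are 300 bp windows at the summits of 4 of the strongest head-to-head peaks, chosen among those whose window holds both paired TSSs. They are plus-strand sequence of the RefSeq Release 6 genome, which is dm6. Capitals mark the word CGATA on either strand, read as TATCG on the reverse strand, and the DRE word TATCGATA, which contains CGATA on both strands. They show where the known words lie beside the TSSs and the summit. Pairs spaced wider than the window could not be chosen. Not every strong peak that meets this rule is shown. The windows of CG11309 and CG7632 and of CG3437 and CG3552 also meet it and hold neither word. The peak of Pex11ab and CG8320, at rank 30 of the optimal list, meets it too. That peak had no CGATA within 100 bp of its summit. The 4 windows therefore do not show how frequent the words are.

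Tcs5 and CHMP2B, chr3L:5139346-5139645, plus strand: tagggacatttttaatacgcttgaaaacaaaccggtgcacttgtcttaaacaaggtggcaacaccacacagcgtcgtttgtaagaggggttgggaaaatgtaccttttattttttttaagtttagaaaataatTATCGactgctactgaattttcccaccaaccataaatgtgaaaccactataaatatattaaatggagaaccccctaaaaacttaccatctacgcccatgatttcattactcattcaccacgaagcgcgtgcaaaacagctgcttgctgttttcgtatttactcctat
Fbw5 and CG9147, chr2L:6065934-6066233, plus strand: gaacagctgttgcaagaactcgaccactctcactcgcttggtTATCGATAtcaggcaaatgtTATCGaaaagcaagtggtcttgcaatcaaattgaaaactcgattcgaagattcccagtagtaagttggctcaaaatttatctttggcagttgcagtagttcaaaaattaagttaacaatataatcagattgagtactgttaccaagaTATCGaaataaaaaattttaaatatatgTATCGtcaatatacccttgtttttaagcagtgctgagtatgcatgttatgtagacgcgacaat
Art3 and mRpS10, chr3R:15229368-15229667, plus strand: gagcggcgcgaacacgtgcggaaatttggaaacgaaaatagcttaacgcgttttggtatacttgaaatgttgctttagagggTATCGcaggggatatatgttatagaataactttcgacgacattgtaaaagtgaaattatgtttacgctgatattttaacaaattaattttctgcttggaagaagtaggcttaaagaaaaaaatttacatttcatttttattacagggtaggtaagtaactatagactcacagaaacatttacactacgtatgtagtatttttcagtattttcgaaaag
CG8372 and CG8360, chr2L:8212850-8213149, plus strand: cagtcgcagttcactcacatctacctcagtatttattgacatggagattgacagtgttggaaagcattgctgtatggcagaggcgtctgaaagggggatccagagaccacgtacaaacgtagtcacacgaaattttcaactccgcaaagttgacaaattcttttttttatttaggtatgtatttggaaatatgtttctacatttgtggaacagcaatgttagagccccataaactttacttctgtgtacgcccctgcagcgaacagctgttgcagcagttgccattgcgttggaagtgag

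Positions in these windows are counted from 1 at the left end, and the summit is at position 151 in each. In the window of Tcs5, a kinase of a tRNA-modifying complex, and CHMP2B, a subunit of the membrane-scission complex ESCRT-III, the minus-strand TSS is at position 50 and the plus-strand TSS at position 274, and CGATA occurs 1 time between them. In the window of the F-box gene Fbw5 and CG9147 the paired TSSs are only 44 bp apart, at positions 20 and 64, and 1 DRE word lies between them. CGATA occurs 5 times in that window, counting both strands of the DRE word. The summit lies to the right of both paired TSSs there, and 3 bp from another annotated TSS. In the window of Art3, an arginine methyltransferase gene, and mRpS10, a subunit of the small mitochondrial ribosomal subunit, the TSSs are at positions 41 and 298, and CGATA occurs 1 time. The window of CG8372 and CG8360 holds neither word.

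The 20 strongest head-to-head peaks of the optimal list were in the top regions of all 3 replicates, with ranks between 8 and 93 in the optimal list. The strongest lay on chromosome X at 2703717 to 2704068, between Ugalt, a UDP-galactose transporter gene, and eIF2Bbeta, a subunit of the exchange factor that recycles the initiation factor eIF2. It ranked 16 in replicate 2, 19 in replicate 3 and 2 in replicate 4. The TSSs of this pair are 719 bp apart and the summit was 31 bp from the Ugalt TSS. It therefore sat at 1 end of the shared interval, not in its middle.

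The second peak, on arm 3R from position 31404503, was beside PNPase, which encodes polynucleotide phosphorylase, and Gprk2, a kinase of G protein-coupled receptors, and ranked 33, 23 and 5 in replicates 2, 3 and 4. The peak of mRpS23, a mitochondrial ribosomal protein gene, and CenG1A ranked 38, 34 and 13. The peak of Chro, which encodes the chromatin protein Chromator that interacts with BEAF-32, and Ssl1, a subunit of the general transcription factor TFIIH, ranked 37, 50 and 14. These 4 peaks were within the first 50 of every replicate list.

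Others among the 20 served genes of many kinds. The peak of Tcs5 and CHMP2B ranked 61, 32 and 18 in replicates 2, 3 and 4, and that of Pex11ab, a peroxisome division gene, and CG8320 ranked 66, 24 and 25. The peak of Art3 and mRpS10 ranked 67, 43 and 31, and that of mRpL41, of the large mitochondrial ribosomal subunit, and CG8079 ranked 107, 44 and 26. The least even was Dpit47, an Hsp90 co-chaperone gene, and Adf1, a transcription factor gene, which ranked 160, 614 and 15. Its summit was also the farthest from a TSS among the 20, at 797 bp. The peaks of Fbw5 and CG9147, CG8372 and CG8360, Pdrg1 and Pal1, CG11309 and CG7632, CG3437 and CG3552, Stt3A and bves, Mkk4 and SLIRP2, CG5611 and Mtl, and tank and CG12194 lay at ranks 34 to 90 of the optimal list. The weakest of the 20, CG17896 and CG17778, ranked 140, 186 and 45.

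Of the 20 summits, 11 lay between the paired TSSs and 17 within 200 bp of some TSS. The spacing of the pair was at most 300 bp in 12 of them and over 400 bp in 5. Within 100 bp of the summit, 7 held CGATA and 1 held the DRE word. The latter was the peak of Atat, a tubulin acetyltransferase gene, and Shc, an adaptor of receptor tyrosine kinases, which ranked 370, 132 and 27.

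**Figure D1:**
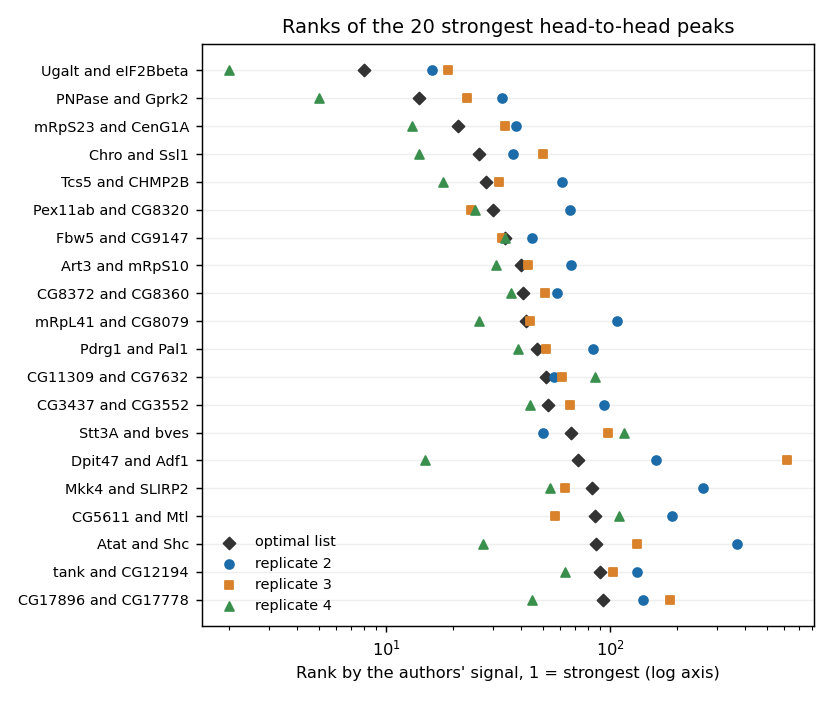
Rank of each of the 20 strongest head-to-head peaks by the authors' signal (log axis, 1 is the strongest) in the optimal list and in replicates 2, 3 and 4. All points lie at rank 614 or better, and Dpit47 and Adf1 spread most, from 15 to 614.

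Over all 575 peaks the signal in the optimal list ran from 88.5 to 1213, with a median of 128.1. The other promoter peaks had a median of 128.02. The ratio of the medians was 1.00 in the optimal list, and 0.980, 1.03 and 1.08 in replicates 2, 3 and 4. Head-to-head peaks were thus below the other promoter peaks in 1 replicate and above them in 2, and an exact two-sided sign-flip permutation test over the 3 replicates gave p = 0.5. That test cannot give less than 0.25 with 3 replicates. The mean ratio was 1.03 ± 0.0519 (SD, n = 3). Several alternatives turned the optimal ratio below 1: it was 0.909 among peaks found in all 3 replicates and 0.890 in the upper 50% of peaks by signal, so no direction is given.

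The replicates differed in how many head-to-head peaks they ranked high. Replicate 2 had 402 in its top regions, replicate 3 had 680 and replicate 4 had 517, with a mean of 533 ± 140 (SD, n = 3). As a share of promoter peaks this was 29.2%, 40.7% and 37.1%, with a mean of 35.6% ± 5.88, beside 39.4% in the optimal list. Replicate 2 was the lowest on both counts.

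A head-to-head peak was called found in a replicate when a summit of its top regions lay within 200 bp. Of the 575 peaks, 203 were found in all 3 replicates, which is 35.3% (exact 95% binomial interval 31.4% to 39.4%). Another 196 were found in 2 replicates, 158 in 1 and 18 in none. The share found in all 3 was 40.8% for other promoter peaks and 38.3% for peaks away from promoters, and the intervals of the 3 classes overlapped. Intervals cover counting error only. The classes differed in which replicate held them. Head-to-head peaks were found in replicates 2, 3 and 4 in 57.2%, 78.8% and 65.6% of cases, against 69.8%, 69.7% and 69.4% for other promoter peaks. Replicate 2 held the fewest head-to-head peaks and replicate 3 the most, while the other promoter peaks were shared evenly. Among the 627 strongest optimal peaks, 116 of 131 head-to-head peaks were found in all 3 replicates (88.5%), and among the 628 weakest 0 of 147 were.

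The share of head-to-head peaks was lowest at the bottom of each replicate list. Averaged over the 3 replicates it was 22.3% ± 7.47 of regions at ranks 1 to 500 and 22.8% ± 7.60 at ranks 501 to 1000. It was 14.9% ± 5.61 at ranks 2501 to 5000 and 4.12% ± 2.22 (SD, n = 3) at ranks 20001 to 30000. The course differed between replicates. In replicate 2 the share was 13.9% at ranks 1 to 500, higher at 17.4% at ranks 2501 to 5000, still 15.9% at ranks 5001 to 10000, and 6.42% at ranks 20001 to 30000. In replicates 3 and 4 it was 28.2% and 24.8% at ranks 1 to 500 and 18.8% and 8.48% at ranks 2501 to 5000. Within promoter regions alone the share was 34.6% ± 8.13 at ranks 1 to 500 and 14.8% ± 4.85 at ranks 20001 to 30000. In replicate 2 it was 25.4%, then 30.4% at ranks 2501 to 5000, and 20% at the bottom, while replicates 3 and 4 went from 40.8% to 14.2% and from 37.6% to 10.4%.

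The summits lay close to the TSSs and mostly between them. The nearest TSS was a median of 92 bp away, with the middle 50% of peaks from 51 to 132 bp, and 89.0% of summits were within 200 bp of a TSS. The medians in replicates 2, 3 and 4 were 89.5, 90 and 86 bp. Among other promoter peaks the median was 243 bp and 41.2% were within 200 bp. Having more TSSs nearby makes a short distance more likely, and the rule requires TSSs on both strands, so this difference is a description. The nearest TSS lay downstream of the summit in 80% of head-to-head peaks, with a median summit position 80 bp upstream of it. For a summit between divergent TSSs, both paired TSSs are downstream by definition. The share was 75.6% for other promoter peaks. At summits at most 200 bp from a TSS it was 81.8% for head-to-head and 85.5% for other promoter peaks.

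Of the 575 summits, 412 lay between the paired TSSs (71.7%), 86 to the left of the pair and 77 to the right. In replicates 2, 3 and 4 the share between the TSSs was 62.2%, 71.03% and 76.8%, with a mean of 70.0% ± 7.35 (SD, n = 3). The median spacing of the paired TSSs was 274 bp, with the middle 50% of peaks from 181.5 to 384.5 bp. The spacing ran from 2 to 1628 bp, since TSSs up to 1 kb to either side of a summit count. In all, 290 peaks (50.4%) had a spacing of over 200 to 400 bp.

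The place of the summit relative to the shared interval changed with the spacing. For pairs 1 to 100 bp apart, 17 of 102 summits lay between the TSSs (16.7%). For pairs over 200 to 300 bp apart, 157 of 186 did (84.4%), and 120 of these 157 were in the middle 50% of the interval (76.4%). The nearest TSS was then a median of 85 bp away. For pairs over 600 to 1000 bp apart, 47 of 51 summits were between the TSSs (92.2%), but only 13 of the 47 were in the middle 50% (27.7%), and the nearest TSS was a median of 135 bp away. At this spacing most summits sat nearer to 1 of the TSSs, as at Ugalt, while at over 200 to 300 bp most sat centrally. The length of the interval enters these shares. A summit 85 bp from a TSS is in the middle 50% of a 300 bp interval but not of a 600 bp one. How much of the contrast goes beyond this was not tested. Replicates 2, 3 and 4 placed 77.9%, 74.6% and 68.0% of their between-TSS summits in the middle 50% at over 200 to 300 bp, and 18.8%, 27.1% and 25.5% at over 600 to 1000 bp. The 2 sets of replicate values do not overlap. For the widest pairs, over 1000 bp apart, the rule itself keeps the summit between the TSSs and off both ends, since each must be within 1 kb. All 15 summits therefore lay between the TSSs, and 7 of them were in the middle 50% (46.7%), with a median of 241 bp to the nearest TSS. The replicates had 41.7%, 60% and 63.6% in the middle 50%, from 11 to 15 summits each. These values cannot be compared with those of closer pairs.

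**Figure D2:**
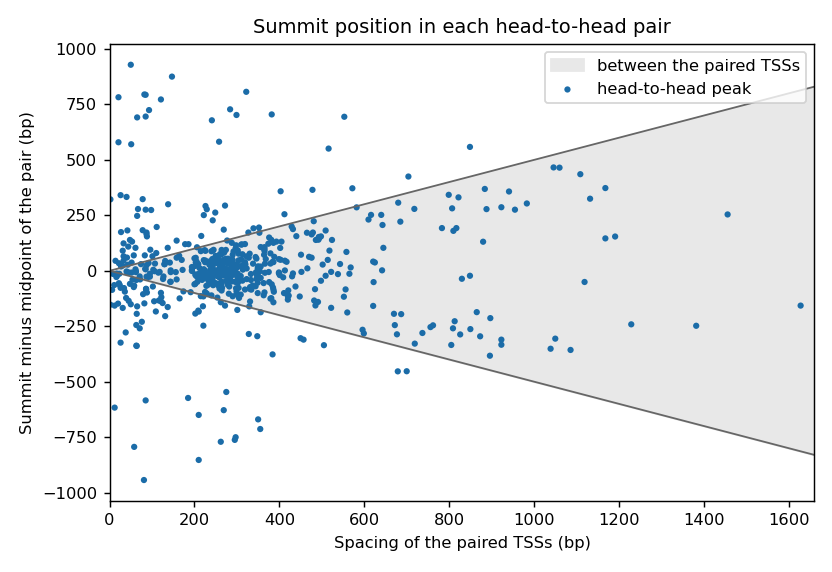
Summit position against the spacing of the paired TSSs for the 575 head-to-head peaks: the vertical axis is the summit minus the midpoint of the pair in bp, and the grey wedge marks positions between the TSSs. Of the points, 412 lie in the wedge, most densely at spacings of over 200 to 400 bp (290 peaks). At over 600 to 1000 bp, 27.7% of the points in the wedge are in its middle 50%, against 76.4% at over 200 to 300 bp.

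The 575 peaks had 539 distinct closest pairs. Of these pairs, 504 had 1 peak, 34 had 2 and 1, Pax and Alp12, had 3. The intervals of 48 peaks overlapped that of another head-to-head peak, and such peaks share their sequence and genes. At 43 peaks, 2 or more divergent pairs were within reach. Together 1127 genes took part, which is 8.07% of the 13968 protein-coding genes.

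Just inside the limit of 1 kb were the peaks of Or9a and Neb-cGP, ced-6 and Camta, and Spred and BEAF-32, with the farther TSS at 995, 990 and 989 bp. Just outside were those of CG12811 and ohgt, wde and CG12935, and CG31635 and Tango1, at 1004, 1006 and 1007 bp. Only 16 of the 575 peaks had the farther TSS over 900 bp away, and 474 had it within 500 bp.

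The next comparison asked how often head-to-head promoters carried a Broad peak at all. Of the 13968 protein-coding genes, 13.5% had an optimal summit within 1 kb of a TSS. A gene was counted as head-to-head when its TSS and that of a divergent neighbour were at most 1 kb apart, which held for 5052 genes (36.2%). Of these, 1212 had a summit within 1 kb (23.99%), against 673 of 8916 other genes (7.55%), a difference of 16.4 percentage points. In replicates 2, 3 and 4 the head-to-head genes had 17.8%, 28.0% and 21.8%, and the other genes had 7.63%, 9.16% and 7.42%. The lowest head-to-head value was above the highest value of the other genes. The mean difference was 14.5 ± 4.37 percentage points (SD, n = 3), higher for head-to-head genes in 3 of 3 replicates, and the exact two-sided sign-flip permutation test gave p = 0.25, the smallest it can give.

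A head-to-head gene also counts summits at its neighbour's TSS, so pairs were counted too. Of 2667 annotated pairs at most 1 kb apart, 582 had a summit within 1 kb of both TSSs, or 21.8%. The values in replicates 2, 3 and 4 were 15.4%, 25.98% and 19.8%. Counted this way the excess over single genes outside pairs was 14.3 percentage points, and 12.3 ± 4.50 over the replicates (SD, n = 3, exact sign-flip p = 0.25). With a window of 200 bp in place of 1 kb, 16.3% of head-to-head genes and 3.59% of other genes had a summit.

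Pairs of intermediate spacing carried a peak most often. Of pairs over 200 to 300 bp apart, 34.9% had a summit (189 of 542, exact 95% interval 30.9% to 39.0%), and of pairs over 300 to 400 bp apart 28.8% did. The share was 15.4% at over 100 to 200 bp (55 of 357), 24.01% at 1 to 100 bp, 13.5% at over 400 to 600 bp and 12.1% at over 600 to 1000 bp. The region within 1 kb of both TSSs is shorter for wider pairs, which lowers their shares by definition. The region within 200 bp of either TSS is not shorter for wider pairs. Counted by it, the shares from the closest to the widest pairs were 18.2%, 14.8%, 33.4%, 27.8%, 10.9% and 9.70%. At over 200 to 400 bp, replicates 2, 3 and 4 had 21.4%, 36.6% and 27.9% of pairs with a summit, against 12.2%, 20.2% and 15.3% at all other spacings. The difference was positive in 3 of 3 replicates, at 12.8 ± 3.59 percentage points (SD, n = 3, exact two-sided sign-flip permutation p = 0.25).

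**Figure D3:**
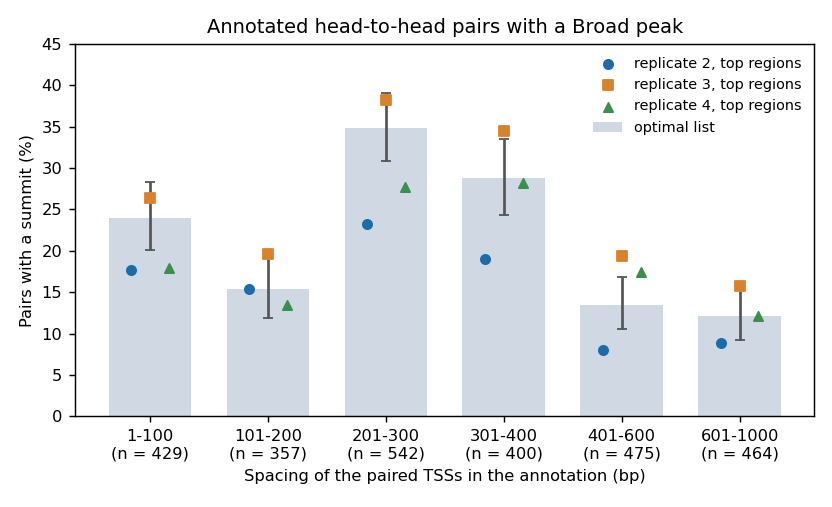
Share of annotated head-to-head pairs with a summit within 1 kb of both TSSs, by the spacing of the pair. Bars are the optimal list with exact 95% binomial intervals, and points are the top regions of each replicate; the bars are highest at over 200 to 300 bp (34.9%) and lowest at over 600 to 1000 bp (12.1%).

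Chromosome X stood lower than the large autosome arms. On X, 47 of 403 pairs carried a peak (11.7%), against 534 of 2253 on the autosome arms (23.7%). By arm the share was 20.4% on 2L, 21.0% on 2R, 24.7% on 3L and 27.5% on 3R. X was lower in 3 of 3 replicates, with 9.93% against 16.5% in replicate 2, 11.9% against 28.5% in replicate 3 and 17.6% against 20.2% in replicate 4. The mean difference was −8.60 ± 7.24 percentage points (SD, n = 3, exact two-sided sign-flip permutation p = 0.25), and replicate 4 gave a much smaller one. For genes outside pairs the order was not the same in all replicates: 8.92% of those on X and 7.33% of those on the autosome arms had a summit, and the replicate differences were 0.482, −0.959 and 3.07 percentage points (exact sign-flip p = 0.75). X carried 54 of the 575 peaks, and the small chromosome 4 carried 1.

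Sequence words were counted within 100 bp to either side of each summit, on both strands, beside windows 1 kb away on both sides and windows at all 19275 protein-coding TSSs. Summits lay a median of 92 bp from a TSS at head-to-head peaks and 243 bp at other promoter peaks. A word placed at the TSS, such as the initiator, can thus fall outside a summit window. The part of this in the differences from all TSSs was not tested. The DRE word TATCGATA was in 51 of 575 head-to-head windows, or 8.87% (exact 95% interval 6.68% to 11.5%), and in 0.696% of the windows 1 kb away. It was in 3.28% of windows at other promoter peaks, 0.286% at peaks away from promoters and 6.44% at all TSSs. The difference between head-to-head and other promoter peaks was 5.78, 4.35 and 5.50 percentage points in replicates 2, 3 and 4, a mean of 5.21 ± 0.760 (SD, n = 3, exact two-sided sign-flip permutation p = 0.25). It narrowed when both classes were held to summits at most 200 bp from a TSS, to 9.96% against 6.85%, a choice made after seeing the data. In replicate 3 the matched shares were 11.4% and 10.7%. It was 1.78 percentage points with 50 bp to either side and 10.8 with 150 bp. The word was about as frequent at 100 to 200 bp from the summit, in 4.70% and 5.39% of windows on the left and right, as within 100 bp, in 4.17% and 5.39%, and it was in 1.91% and 1.04% at 200 to 300 bp. Of the 51 peaks with the word within 100 bp, 44 had the summit between the paired TSSs.

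The word CGATA, which the DRE word contains, was in 44.2% of head-to-head windows, 26.4% at other promoter peaks, 20.4% away from promoters, 37.1% at all TSSs and 21.7% of the windows 1 kb from the head-to-head summits. The head-to-head share was higher by 15.8, 13.6 and 18.6 percentage points in replicates 2, 3 and 4. At summits at most 200 bp from a TSS the shares were 47.3% and 32.1%. Among head-to-head peaks found in all 3 replicates CGATA was in 38.9%, near the share at all TSSs. It was in 48.0% of those found in 2 replicates, 44.9% in 1 and 55.6% of the 18 found in none. The core promoter E-box CAGCTG was in 15.8% against 9.94%, with 13.4% at all TSSs, and the TATA box core TATAAA in 40.7% against 33.3%, with 26.9% at all TSSs. The windows 1 kb away also differed for the E-box, at 12.4% for head-to-head and 8.59% for other promoter peaks. At summits at most 200 bp from a TSS the E-box was in 17.0% and 11.5% and TATAAA in 41.02% and 31.8%. The M1BP word GGTCACAC was in 3.30% against 1.47%, with 5.68% at all TSSs, but in 3.32% against 3.29% at summits at most 200 bp from a TSS. The order of head-to-head and other promoter peaks was the same in 3 of 3 replicates for each of these words over all summits, and the exact sign-flip p was 0.25 for each.

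The GAGA factor word GAGAGAG went the other way. It was in 1.91% of head-to-head windows and 9.04% at other promoter peaks, with 4.68% at all TSSs. Replicates 2, 3 and 4 had 4.98%, 1.32% and 0.967% at head-to-head peaks against 19.1%, 5.95% and 5.93% at other promoter peaks. Replicate 2 was highest in both classes, and head-to-head peaks were lower within each replicate. At summits at most 200 bp from a TSS the shares were 1.37% and 9.04%. The repeat CACACACA was in 2.09% against 5.20%, with 3.99% at all TSSs, and the initiator word TCAGTT in 10.1% against 12.5%, with 21.9% at all TSSs.

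Words of the Broad zinc finger types were counted as well. The Z3 word AAACTA was in 23.7% of head-to-head windows, 18.5% at other promoter peaks, 21.2% away from promoters and 17.4% at all TSSs. The Z4 word GTAAACA, which is also the forkhead core, was in 8.52%, 6.10%, 5.43% and 6.12%. The Z2 word CTATTT was in 19.8%, 23.6%, 17.9% and 16.4%. At summits at most 200 bp from a TSS the Z3 word was in 23.2% of head-to-head and 19.7% of other promoter windows. In replicates 2, 3 and 4 these Z3 shares were 23.7% against 13.1%, 23.5% against 22.9% and 20.95% against 20.85%. For the Z4 word they were 7.91% against 4.71%, 6.18% against 6.10% and 7.78% against 8.16%. The Z3 and Z4 differences were thus small or reversed in replicates 3 and 4. In the windows 1 kb from head-to-head summits the Z3, Z4 and Z2 words were in 11.7%, 4.26% and 11.6%. The GC content was 35.0% at head-to-head summits and 47.1% in those outer windows, so AT-rich words such as these, TATAAA and AAAAAAAA differ between the windows along with base composition, and the part of composition in the result was not tested. The tract AAAAAAAA was in 12.3% of head-to-head windows and 11.9% at other promoter peaks, with 10.5% at all TSSs, and its order differed between replicates. The nuclear receptor word AGGTCA was in 2.26% and 3.28%, with 3.26% at all TSSs.

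The DRE word, CGATA and TATAAA were also frequent at head-to-head pairs without a Broad peak. In windows at the midpoints of annotated pairs, the DRE word was in 9.28% of the 582 pairs with a peak and 8.35% of the 2085 without, and the difference was 2.23, 0.927 and −1.43 percentage points in replicates 2, 3 and 4. CGATA was in 43.0% and 40.8%, with replicate differences of 3.42, 1.35 and −1.31. Neither word separated bound from unbound pairs in the same direction in every replicate. TATAAA was in 42.4% and 39.0%, also with replicate differences of both signs.

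Of the 13 words, 8 kept their direction between pairs with and without a peak in 3 of 3 replicates, and the exact two-sided sign-flip permutation p of each was 0.25, the smallest possible. The M1BP word was in 2.92% of bound and 6.09% of unbound midpoints, with differences of −1.51, −3.59 and −1.999 percentage points in replicates 2, 3 and 4. The initiator word was in 10.8% and 14.8%, and the nuclear receptor word in 2.41% and 4.75%. The Z3 word was in 27.0% and 23.02%, higher by 5.05, 3.60 and 1.69 percentage points, and the Z4 word in 9.62% and 7.29%, higher by 1.68, 1.36 and 1.87. The E-box was in 15.3% and 11.99%, the GAGA factor word in 1.20% and 2.64%, and the tract AAAAAAAA in 12.7% and 13.7%. Pairs with and without a peak also differed in spacing: 32.3% of pairs over 200 to 400 bp apart had a peak, against 16.1% at other spacings. A fixed window at the midpoint lies at a different distance from the TSSs at each spacing. The GC content of the windows was 33.2% and 34.2%. The part of spacing and composition in these word differences was not tested.

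**Figure D4:**
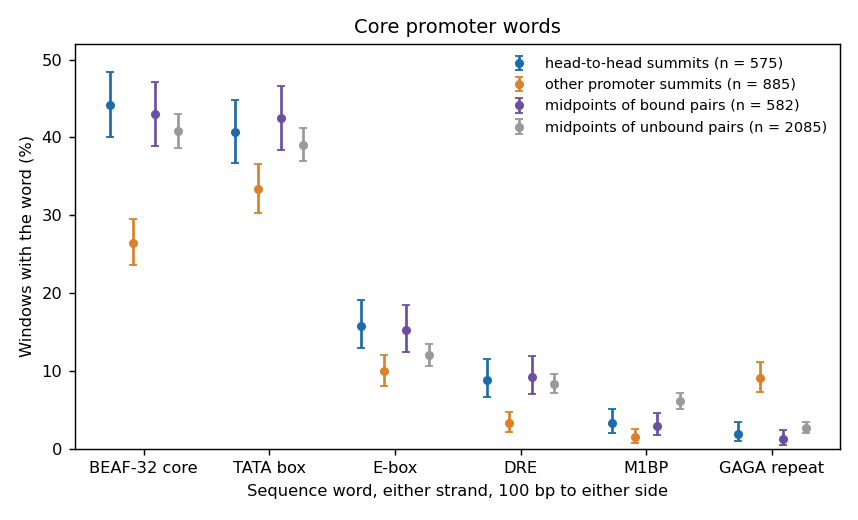
Share of windows, reaching 100 bp to either side, that hold each of 6 sequence words at head-to-head summits, other promoter summits and the midpoints of annotated pairs with and without a peak, with exact 95% binomial intervals. The BEAF-32 core (CGATA) is at 44.2% at head-to-head summits and 26.4% at other promoter summits, but at 43.0% and 40.8% at bound and unbound midpoints.

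The genes at head-to-head peaks were shorter than the other genes with a promoter peak, but not shorter than the median gene. Their median length was 2478 bp, against 7289 bp for the other genes with a promoter peak, 2167 bp for head-to-head genes without one and 2164.5 bp for all protein-coding genes. In replicates 2, 3 and 4 the median was 2658, 2491 and 2763 bp at head-to-head peaks and 8702, 5345 and 7039 bp at the other promoter peaks, and the 2 sets do not overlap. A single TSS was annotated for 61.8% of the genes at head-to-head peaks, for 40.4% of the other genes with a promoter peak for 71.9% of the head-to-head genes without a peak and for 73.5% of all protein-coding genes.

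Genes of the 2 translation machineries made up large groups. Of 86 cytosolic ribosomal protein genes, 25 were at a head-to-head peak (29.1%). Any promoter peak was found at 34 of the 86, paired or not (39.5%), against 13.5% of all protein-coding genes. Of the 53 that lie in an annotated head-to-head pair, 47.2% had a promoter peak, against 23.99% of all head-to-head genes. The replicates placed 18, 20 and 18 cytosolic ribosomal protein genes at head-to-head peaks. The strongest were RpS19b with CG5854, at ranks 310, 691 and 171 in replicates 2, 3 and 4, RpL34b with CG8132 and RpL32 with CG7943. The summit of the RpS19b peak lay to the right of the pair, 896 bp from the RpS19b TSS and 514 bp from that of CG5854. Of 75 mitochondrial ribosomal protein genes, 18 were at a head-to-head peak, nearly all of the 19 with any promoter peak, and the replicates had 9, 24 and 18. Annotated pairs held 59 of the 75, and 32.2% of these 59 had a promoter peak. Replicate 2 was again the lowest. Among the 13968 genes, 8.07% were at a head-to-head peak, and by replicate 5.66%, 9.61% and 7.30%.

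For other lists of gene expression and protein turnover, the count at head-to-head peaks is given with the share of their genes in annotated pairs that had a promoter peak, to be read against 23.99% of all head-to-head genes. Of 53 translation factor genes 9 were at a head-to-head peak, led by eIF2Bbeta, eIF4EHP, a cap-binding repressor of translation, and eIF3c, and 33.3% of the paired ones had a promoter peak. Of 33 aminoacyl-tRNA synthetase genes 6 were, led by GluProRS, SerRS and IleRS, with 26.1% of the paired ones. Of 83 genes of RNA polymerases, Mediator and general transcription factors 13 were, led by Ssl1, MED30 and MED27, with 24.1% of the paired ones. Of 42 splicing factor genes 6 were, led by Slu7, snRNP-U1-C and U4-U6-60K, and of the 36 in annotated pairs 16.7% had a promoter peak. Of 32 proteasome genes 6 were, led by Rpn5, Rpn3 and Rpt5, and these 6 were all the proteasome genes with a promoter peak, 27.3% of the paired ones. These paired shares lay near or below that of all head-to-head genes for the polymerase, synthetase, proteasome and splicing lists.

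In energy metabolism and membranes, 10 of 80 oxidative phosphorylation genes were at a head-to-head peak, led by ND-ASHI, blw and ND-MWFE, and 26.2% of their 42 paired genes had a promoter peak. The vacuolar proton pump had 4 of 29, led by Vha100-2, Vha16-5 and Vha36-1, with 41.7% of its 12 paired genes. Autophagy genes had 5 of 21, led by Atg17, Atg2 and Atg7, with 35.3% of their 17 paired genes. Membrane traffic genes had 19 of 93, led by Vps33B, alphaCOP and AP-1sigma, with 32.8% of their 61 paired genes. DNA replication genes had 3 of 38, which are PolD2, Mcm5 and dup, and this 7.89% was close to the 8.07% of all genes. Of the 25 in annotated pairs, however, 12% had a promoter peak, below the 23.99% of all head-to-head genes. Heat shock protein genes had 3 of 26, Hsp83, Hsc70-5 and Hsc70-4, and 33.3% of their 9 paired genes had a promoter peak.

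Genes that act on chromatin and insulation had 12 of 45 at a head-to-head peak, which is 26.7%. They were led by Chro, by Cp190, a cofactor of insulator proteins, and by brm, the ATPase of the Brahma remodelling complex. Of the 29 paired genes 41.4% had a promoter peak, and of all 45 genes 19 had one (42.2%), against 13.5% of all protein-coding genes. The high share was thus not particular to the paired genes of this list. The replicates had 5, 10 and 7. The peak of Cp190 with CG4338 ranked 739, 169 and 376 in replicates 2, 3 and 4. The peak of brm with Arl1 ranked 730 and 118 in replicates 2 and 3 and was not found within 200 bp in the list of replicate 4. The gene for BEAF-32 was at a head-to-head peak with Spred, just inside the 1 kb limit and at rank 1880 of the optimal list.

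Of 27 matched genes of the ecdysone response 14 had a promoter peak (51.9%), against 13.5% of all genes. In an annotated head-to-head pair lay 5 of the 27 (18.5%), against 36.2% of all genes, and 4 of these 5 had a promoter peak. At a head-to-head peak were 3 of the 27 (11.1%), beside 8.07% of all genes, and the replicates had 2, 5 and 1. These were the ecdysone-inducible ImpE3 with CG10903, the coactivator gene tai with CG9586, and the orphan nuclear receptor gene Hr3 with Hdc. Their ranks were weak and uneven: Hr3 had 2309, 1337 and 6737 in replicates 2, 3 and 4, and tai had 2767, 606 and 14700. ImpE3 had ranks 3312 and 335 in replicates 2 and 3 and was not found in replicate 4.

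Lists of genes with restricted expression had almost no promoter peaks of any kind, and so almost no head-to-head peaks. Any promoter peak was found at 0 of 112 cuticle protein genes, 1 of 120 odorant and gustatory receptor genes and 0 of 17 salivary glue and 71E puff genes. Among all genes the share was 13.5%. In an annotated head-to-head pair were 11 of the cuticle protein genes and 16 of the receptor genes (13.3%). The 1 receptor gene at a head-to-head peak was Or9a, whose TSS was near the 1 kb limit while the summit was 65 bp from the nearest TSS. The salivary glue genes and those of the 71E puff, classic targets of ecdysone in salivary glands, had 0 of 17 at a head-to-head peak. Of these 17 genes 14 were in a head-to-head pair (82.4%), and none of these pairs carried an optimal peak. Counts of 0 in whole larvae do not separate absence of binding from binding in few cells.

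**Figure D5:**
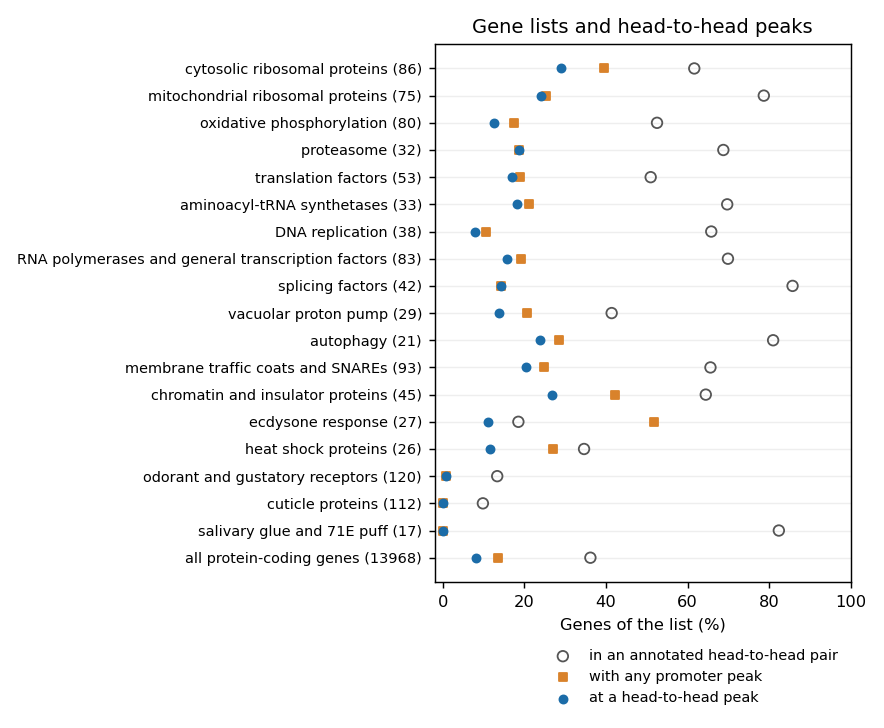
Share of the genes of each list that are in an annotated head-to-head pair (open circles), have any promoter peak in the optimal list (squares) or are at a head-to-head peak (filled circles); the number of genes matched is in brackets. Cytosolic ribosomal protein genes reach 29.1% at head-to-head peaks and all genes are at 8.07%. The salivary glue and 71E puff genes are at 0 for head-to-head peaks and for any promoter peak, although 82.4% are in pairs.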

How the data were processed

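The authors deposited regions per replicate, pooled, and thresholded as an optimal list on dm6, with a signal value and a −log10 q-value per region, per the file headers and labels; the deposited signal ranked regions within 1 list and the q-value was only inspected. Aligner, peak caller, normalization and read depth were not stated in these sources. The dm3 copies were not used. Sonicated fragments were sized 200 to 800 bp, per the labels. A summit was the start plus the summit offset. The 23 mitochondrial or unplaced optimal peaks were left out. Protein-coding TSSs came from Ensembl release 115 (BDGP 6.54) and sequence from RefSeq Release 6; all peaks lay within its chromosomes.

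Shares have exact 95% binomial intervals. Differences were taken within each replicate and tested with an exact two-sided sign-flip permutation test over 3 replicates. Peaks sharing a promoter are not independent. The class assignment was tested on simulated data. Python 3.11.15, numpy 2.4.6, scipy 1.17.1 and matplotlib 3.10.9 were used.

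The members, the 18 gene lists and the 13 words were chosen with earlier results of these data known. A Broad Z1 word was dropped because its sequence was not certain, after its shares had been seen. Gene lists were matched by symbol, with 45 of 47 chromatin and 27 of 31 ecdysone symbols matched. The text names the pairs of the 20 strongest head-to-head peaks found in all 3 replicates, up to 3 genes per list in order of signal, and the 3 peaks to either side of the 1 kb limit. Pax and Alp12 were named after their values were seen. Alternatives left out each replicate, and changed the promoter window, the TSSs per gene, the strength of peaks, the matching of replicates, the pair spacing and the word window.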

Additional observations from a re-analysis of the deposited data

How the results depend on the processing

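The excess of bound genes in head-to-head pairs and the DRE difference between head-to-head and other promoter peaks kept their sign under every alternative run, at 5.70 to 18.6 and 1.78 to 10.8 percentage points. The number of head-to-head peaks was 226 to 304 when 1 replicate was left out and only peaks found in the other 2 were kept, 203 among peaks found in all 3 replicates and 292 in the upper 50% by signal; these choices keep fewer peaks by construction. The share found in every replicate was 39.3% to 52.9% with 1 replicate left out, 65.1% in the upper 50%, 30.8% with summits within 100 bp, 19.1% with 50% as many top regions and 74.3% against all regions, so it depended most on how many regions count. The share between the TSSs was 60.6% with promoters of 2000 bp. The nearest TSS was a median of 94 to 98 bp away with 1 replicate left out, 97 bp among peaks found in all 3, 84.5 bp and 105 bp with promoters of 500 and 2000 bp, and 97 bp with 1 TSS per gene. The signal ratio was below 1 with 1 replicate left out (0.865 to 0.952), among peaks found in all 3 (0.909), in the upper 50% (0.890) and with promoters of 500 and 2000 bp (0.998 and 0.986); the cause was not tested. With summits at most 200 bp from a TSS, chosen after seeing the data, 58.4% of promoter peaks were head-to-head. No paired analysis was possible because only 1 group was labelled, so no groups could be paired by replicate number; differences between classes of peaks were taken within each replicate. Depth is unknown, and weak peaks were rarely found in all replicates.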
